A study of Cavia porcellus with 6 samples.

Results

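The muscarinic acetylcholine receptor genes Chrm1 to Chrm5 and the adenosine receptor genes Adora1, Adora2a, Adora2b and Adora3 were chosen by symbol from a read count table of guinea pig (Cavia porcellus) sclera. They are the receptors of the antimyopia drugs atropine and 7-methylxanthine. All 9 symbols were among the 32193 genes listed. The libraries were made from posterior sclera of right eyes collected on day 28 of induction, 3 of them from form-deprived guinea pigs (FDM) and 3 from the control group (NC). Form deprivation removes sharp vision from a covered eye, which then grows long and myopic. No library is labelled as treated with atropine, 7-methylxanthine or the quercetin of the series title. The labels give no strain, age, sex, type of cover or pooling of tissue, and each right eye was taken to be a separate animal.

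Muscarinic receptors are G protein-coupled receptors for acetylcholine. The products of Chrm1, Chrm3 and Chrm5 couple mainly to Gq, which raises calcium through phospholipase C, and those of Chrm2 and Chrm4 couple to Gi, which lowers cyclic AMP. Atropine blocks all the muscarinic subtypes. Adenosine receptors sense extracellular adenosine, and those encoded by Adora2a and Adora2b couple to Gs, which raises cyclic AMP, while those of Adora1 and Adora3 couple to Gi. 7-methylxanthine is a caffeine metabolite that blocks adenosine receptors without much preference for a subtype. Both drugs are given to slow axial elongation, and whether they act in the retina, the choroid or the sclera is debated.

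The libraries held 10377397 to 17534982 counts. FDM 1 and NC 1 had counts for 12783 and 14416 genes and the other 4 libraries for 17689 to 20591. Low counts were scarce beside the number of genes at 0. In FDM 1, 282 genes had 1 to 9 counts while 19410 had none, and in NC 1 these numbers were 333 and 17777. In NC 2 they were 3165 and 11602. A count of 0 allows, by counting error alone, a level of up to 3 counts. In FDM 2, FDM 3, NC 2 and NC 3 that is 0.171 to 0.217 counts per 1000000 (CPM) of the library total. In FDM 1 and NC 1 zeros also fell on genes of far higher count, so a 0 there sets no such limit. The limit and all counts below cover counting error only, since the reads carry no molecular identifiers. Fibroblast genes, the defining markers of sclera, were high in every library, their 9 markers summing to 6776 to 61667 CPM. Markers of other tissues of the eye were also present. The 10 skeletal muscle markers in the table summed to 93.4 to 80688 CPM and the 13 photoreceptor markers to 229.2 to 26599 CPM. The 4 astrocyte markers summed to 23.5 to 9340 CPM. The muscle sum exceeded the fibroblast sum in FDM 1 and FDM 2 (68868 and 80688 against 34674 and 18873 CPM). It also did in NC 2 and NC 3 (20269 and 31440 against 6776 and 17221 CPM), but not in FDM 3 and NC 1. In NC 2 the photoreceptor sum, 26599 CPM, was above the fibroblast sum too. Such sums do not give shares of tissue.

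Reads of at least 1 receptor of each family were found in every library. Of 54 receptor values (9 genes in 6 libraries) 18 were 0. Muscarinic genes held 15 of these zeros in 30 values and adenosine genes 3 in 24. FDM 1 and NC 1 each had reads for 4 of the 9 receptors, FDM 2 and FDM 3 for 6, NC 3 for 7 and NC 2 for 9. The libraries with the fewest genes detected were thus also those with the fewest receptors detected, and NC 2, with 20591 genes detected, was the one library with reads of the full set. In FDM as a group 8 receptors had a read in at least 1 library, the missing one being Chrm1, and in NC 9 did. Adora2a and Adora2b were the 2 receptors with reads in all 6 libraries. Of the 6 receptors that passed the filter on low counts these 2 make up a smaller part than the 68.5% of all 16348 genes tested that had reads in every library, a comparison given as a description.

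Summed over the family, muscarinic genes had 34, 43 and 175 reads in FDM 1 to 3 and 55, 491 and 449 in NC 1 to 3. NC 2 and NC 3 stood above the other 4 libraries, and NC 1 lay within the FDM range. Adenosine receptor genes had 295, 798 and 667 reads in FDM and 412, 448 and 797 in NC, and here the groups overlapped throughout. Reads of different genes were not divided by transcript length, so these sums do not rank the genes by transcript number. In whole tissue, fewer cells of a type and less RNA per cell cannot be told apart.

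**Figure D1:**
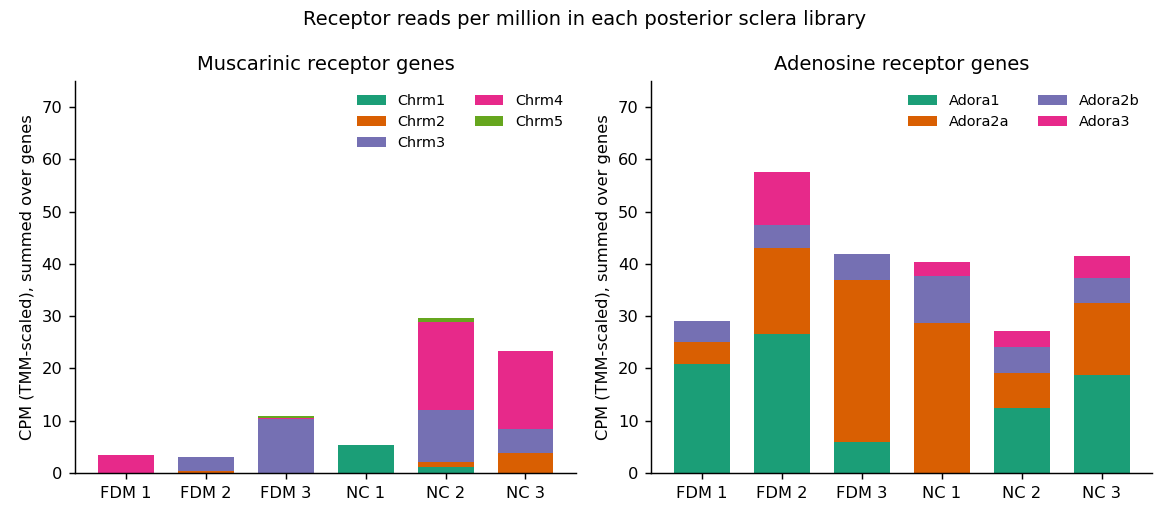
Stacked bars show CPM (on TMM-scaled library sizes) of the 5 muscarinic genes (left) and the 4 adenosine receptor genes (right) in each of 6 libraries, on a shared axis from 0. Muscarinic sums lay between 3.10 and 10.98 CPM in FDM 1 to 3 and NC 1 and at 29.7 and 23.4 CPM in NC 2 and NC 3, most of it Chrm4, while adenosine sums ran from 27.1 to 57.6 CPM.

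Among the Gi-coupled muscarinic genes, Chrm4 had the widest spread. It had 34, 0 and 5 reads in FDM 1 to 3 and 0, 281 and 289 in NC 1 to 3. NC 2 and NC 3 lay far above the 3 FDM libraries, but NC 1 had no read, so the groups overlapped. The mean level was 1.22 ± 1.85 CPM (SD, n = 3) in FDM and 10.7 ± 9.30 CPM in NC. The log2 fold change of FDM against NC was -3.13 ± 2.28 (SE), and its adjusted p over all genes was 0.999999 (edgeR's quasi-likelihood test). Without FDM 1 and NC 1, the values left were 0 and 0.31 CPM in FDM and 17.0 and 15.1 CPM in NC. The fold change was then -6.64 ± 1.39, with an unadjusted p of 0.00235 and an edgeR adjusted p of 0.999855. FDM 1 held the highest FDM count and NC 1 the lowest NC count, so leaving both out by itself separates the groups. That unadjusted p is therefore no support for a difference. With 0 and 5 reads left in FDM, the fitted size depends on the model. With FDM 1 alone left out the log2 fold change was -5.99 ± 2.57. At an unadjusted p below 0.05 the fit without both libraries numbered 1 gave 226 of 17526 genes.

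Chrm2, the main muscarinic subtype of the heart and also found in smooth muscle, had few reads. It had 0, 5 and 0 in FDM 1 to 3 and 0, 17 and 73 in NC 1 to 3. The reads lay mostly in NC 2 and NC 3, as for Chrm4, and NC 1 again had none. Chrm2 did not pass the filter on low counts and had an unadjusted p of 0.243 and an edgeR adjusted p of 0.999962 in a fit without it.

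Of the Gq-coupled muscarinic genes, Chrm3, the subtype that contracts smooth muscle and drives gland secretion, was the one with most reads. It had 0, 38 and 163 reads in FDM 1 to 3 and 0, 163 and 87 in NC 1 to 3. FDM 3 and NC 2 had the same count, and the library numbered 1 of each group had none. Mean levels were 4.32 ± 5.29 CPM in FDM and 4.80 ± 4.93 CPM in NC (SD, n = 3), a difference far smaller than the spread. The log2 fold change of -0.15 ± 2.17 (SE) turned to 0.43, 0.09 and 0.88 without FDM 1, FDM 2 or NC 2.

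Chrm1, best known from brain and glands, had reads in 2 NC libraries and in no FDM library. The counts were 55 in NC 1, 18 in NC 2 and 0 in NC 3. The zero in NC 3 means that the groups overlapped. Chrm1 did not pass the filter. In a fit of all genes with a count, without that filter, its unadjusted p was 0.0375 and its edgeR adjusted p 0.999962. Chrm5, the least abundant of the family in most tissues, had 7 reads in FDM 3 and 12 in NC 2 and none in the other 4 libraries. It did not pass the filter either, and without the filter its unadjusted p was 0.792 and its edgeR adjusted p 0.999962.

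**Figure D2:**
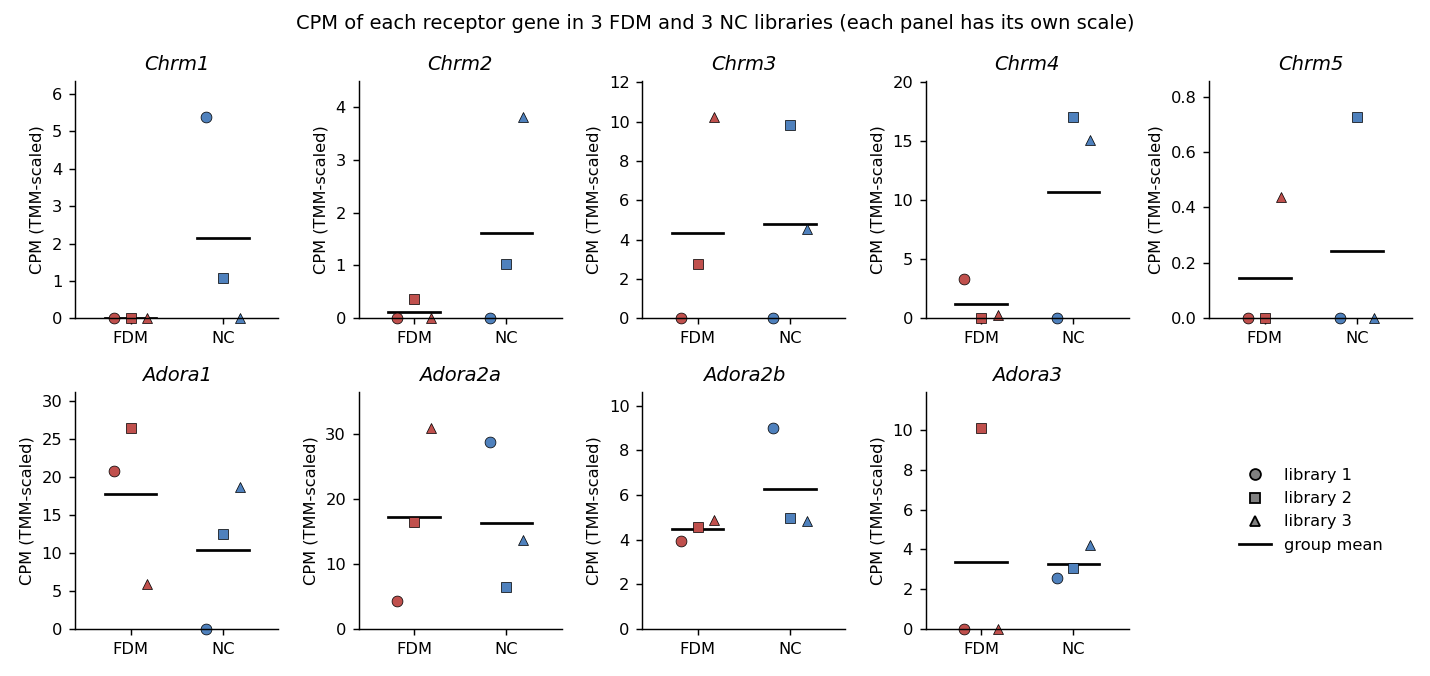
Each panel plots the CPM of a receptor gene in 3 FDM (red) and 3 NC (blue) libraries, with the library number as the symbol and the group mean as a line, on a scale of its own from 0. Chrm4 reached 17.0 and 15.1 CPM in NC 2 and NC 3 but was at 0 in NC 1, Adora2b lay at 3.94 to 9.001 CPM in all 6 libraries, and Adora3 reached 10.1 CPM in FDM 2 while FDM 1 and FDM 3 were at 0.

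The Gs-coupled adenosine receptor genes were the best detected members. Adora2a, a receptor of blood vessels, leukocytes and striatum, had 44, 228 and 494 reads in FDM 1 to 3 and 294, 108 and 263 in NC 1 to 3. The highest and the lowest library were both FDM libraries. Levels were 17.3 ± 13.3 CPM in FDM and 16.3 ± 11.3 CPM in NC (SD, n = 3), and the log2 fold change was 0.08 ± 0.87 (SE). Without FDM 3, the library with most Adora2a, it was -0.69, and without NC 1 it was 0.77.

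Adora2b, a low-affinity adenosine receptor that responds at the high adenosine levels of injured or hypoxic tissue, had reads in every library. Its counts were 40, 63 and 78 in FDM 1 to 3 and 92, 82 and 93 in NC 1 to 3. In CPM of the total counts every FDM library (3.32, 4.19 and 4.82 CPM) lay below every NC library (8.87, 5.94 and 5.30 CPM). The same held for 5.73% of all genes tested, and the reverse order for 1.15%, which is the background for such an order. An exact two-sided permutation test gave p = 0.1, the smallest that 3 against 3 libraries allow. Any gene with such an order gets this value, so it adds nothing to the order itself. TMM scaling gives each library a scale factor from the bulk of its genes and does not remove differences in tissue mixture. With it the groups met, at 4.89 CPM in FDM 3 and 4.85 CPM in NC 3, and the exact permutation p was 0.2. On that scale 2.81% of genes had all FDM libraries below all NC libraries. Mean levels were 4.46 ± 0.481 CPM in FDM and 6.27 ± 2.37 CPM in NC (SD, n = 3). Its log2 fold change was -0.49 ± 1.25 (SE). It was -0.14 without NC 1, the highest library.

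Of the Gi-coupled adenosine receptor genes, Adora1, the high-affinity receptor that dampens neurotransmitter release and lipolysis, had 211, 367 and 95 reads in FDM 1, 2 and 3. In NC 1, 2 and 3 it had 0, 207 and 360. The absence of reads in NC 1 lowered the NC mean, while NC 2 and NC 3 lay among the FDM libraries. Levels were 17.8 ± 10.6 CPM in FDM and 10.4 ± 9.55 CPM in NC (SD, n = 3). Its log2 fold change was 0.76 ± 1.45 (SE). Without NC 1 it was 0.18, and without both libraries numbered 1 it was -0.04.

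Adora3, a receptor of mast cells and other immune cells in rodents, had 140 reads in FDM 2 and 0 in FDM 1 and FDM 3. Its 26, 51 and 81 reads in NC 1 to 3 all lay between these values. Mean levels were 3.37 ± 5.83 CPM in FDM and 3.28 ± 0.855 CPM in NC (SD, n = 3), nearly equal means from unlike libraries. The log2 fold change of 0.04 ± 2.28 (SE) rested on FDM 2 and was -8.57 ± 3.55 without it, with an unadjusted p of 0.0428 and an edgeR adjusted p of 0.999976. The 2 FDM libraries then left are both at 0, so this fitted size depends on the model and is no estimate of a fold.

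Of the 6 receptors tested, 0 passed edgeR's quasi-likelihood test at an adjusted p below 0.05, where 0% of the 16348 genes tested did, and the smallest adjusted p over all genes was 0.999999. At an unadjusted p below 0.05 the receptors again numbered 0, against 0.954% of all genes. On the same genes limma-voom called 0 at an adjusted p below 0.05. DESeq2 called 11 genes, but its own filter gave none of the 6 receptors an adjusted p, and their unadjusted p there was 0.124 to 0.979. All genes tested had a median log2 fold change of 0.02. No receptor had groups that did not overlap after TMM scaling, where 5.55% of all genes tested did. The biological coefficient of variation, the fitted spread between libraries of a group relative to the mean, was 1.80 for Adora3, 1.74 for Chrm3, 1.70 for Chrm4, 1.196 for Adora1, 0.948 for Adora2b and 0.796 for Adora2a. Its median over all genes tested was 0.730, below each of the 6. An adjusted p that misses the threshold with this spread does not show that the receptors were alike in the groups.

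**Figure D3:**
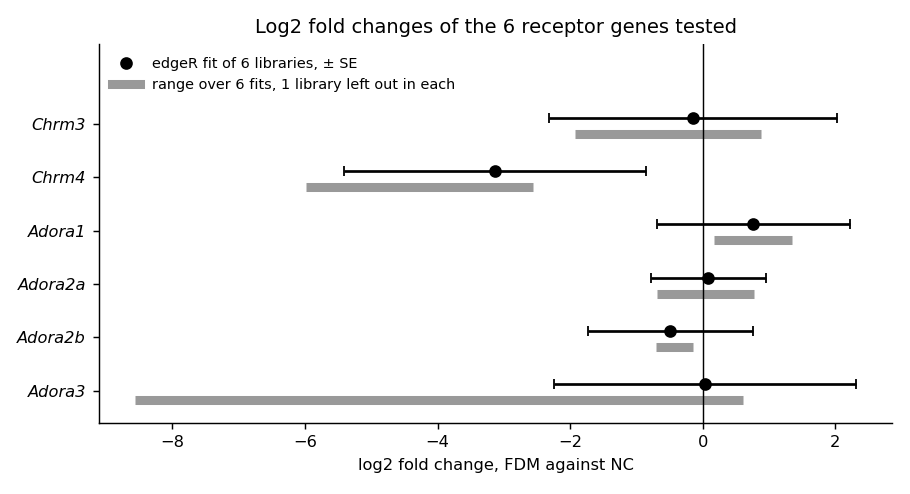
Points show the edgeR log2 fold change of FDM against NC for the 6 receptor genes that passed the filter, with bars of 1 SE, and grey bars the range over 6 fits that each leave out 1 library. The grey bars of Chrm4 ran from -5.99 to -2.55 and those of Adora2b from -0.71 to -0.14, those of Adora1 from 0.18 to 1.35, and those of Chrm3, Adora2a and Adora3 lay on both sides of 0.

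The zeros were set against all genes of like count in the same library. Those of Chrm5 were not, since its mean in the other 5 libraries was 3.8, below the lowest range, which began at 5 counts. For Chrm3, whose mean in the other 5 libraries was 90.2 in either case, the zeros of FDM 1 and NC 1 were of a common kind. Of all genes averaging 50 to 100 counts in the other 5 libraries, 56.5% were at 0 in FDM 1 and 33.1% in NC 1. The zero of Adora3 in FDM 1 falls in the same range. The zeros of Chrm1 in FDM 1, 2 and 3 were shared by 85.2%, 41.1% and 29.3% of genes that averaged 10 to 20 counts elsewhere, and its zero in NC 3 by 25.9%. Those of Chrm2 in FDM 1, FDM 3 and NC 1 were shared by 85.2%, 29.3% and 75.8%. The zeros of Chrm4, Adora1 and that of Adora3 in FDM 3 were less common among genes of their range. Chrm4 had no read in FDM 2, where 1.45% of genes averaging 100 to 200 counts elsewhere had none, and none in NC 1, where 16.3% had none. Its mean elsewhere came mostly from NC 2 and NC 3 (281 and 289 reads), so genes of like mean need not be of like spread. The same limit applies to Chrm1 (55 and 18 reads in NC 1 and NC 2) and Chrm2 (73 in NC 3). It also applies to Adora3, with 140 reads in FDM 2. Adora3 was at 0 in FDM 3, as were 2.54% of genes averaging 50 to 100 counts. Adora1 was at 0 in NC 1, as were 3.28% of genes averaging 200 to 500 counts.

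**Figure D4:**
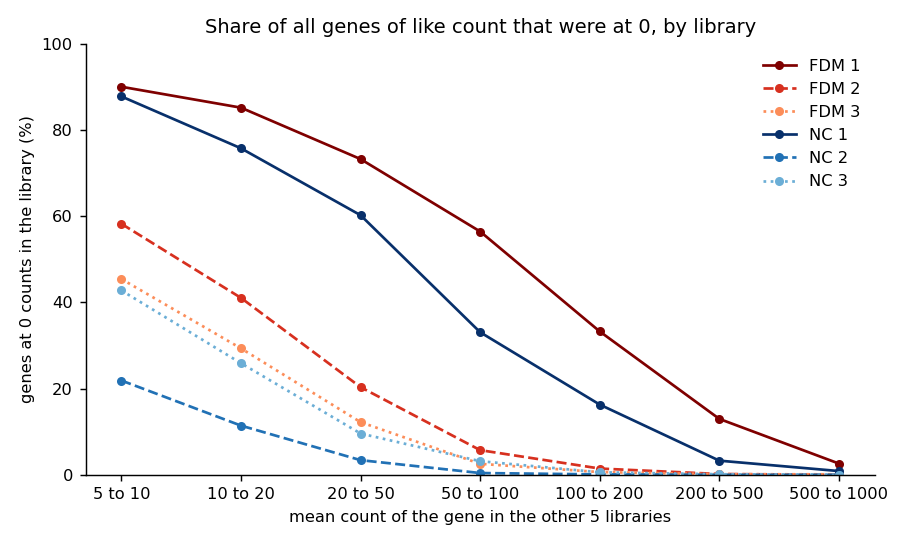
Lines give, for each library, the percentage of all genes at 0 counts by the gene's mean count in the other 5 libraries (7 ranges from 5 to 1000 counts). FDM 1 and NC 1 lie above the other 4 libraries in each range, at 56.5% and 33.1% for means of 50 to 100 counts against 0.408% to 5.72% in the other 4 libraries.

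Marker genes of other tissues moved with some receptors. Adora1 ordered the 6 libraries as the summed skeletal muscle markers did. These markers summed to 68868, 80688 and 12322 CPM in FDM 1 to 3 and to 93.4, 20269 and 31440 CPM in NC 1 to 3. Adora1 was at 20.8, 26.5 and 5.96 CPM in FDM and at 0, 12.5 and 18.7 CPM in NC. In NC 1, the library without Adora1 reads, the adult fast myosin genes Myh2 and Myh4 were also at 0, and so were Chrna1 and Chrnd, subunits of the nicotinic receptor of the muscle endplate. Other subunits of that receptor did have reads in NC 1, with 727 of Chrne and 79 of Chrnb1. Of the 11 muscle markers on the list 10 were in the table, and each of these had reads in all libraries but NC 1, where 8 did.

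Adora3 ordered the libraries as the summed astrocyte markers Gfap, Aqp4, Slc1a3 and Aldh1l1 did, apart from its tie at 0 in FDM 1 and FDM 3. The 4 markers summed to 23.5, 9340 and 123 CPM in FDM 1 to 3 and to 679.7, 1694 and 3591 CPM in NC 1 to 3. Adora3 was at 0, 10.1 and 0 CPM in FDM and at 2.54, 3.08 and 4.22 CPM in NC. Gfap, the intermediate filament of astrocytes, had 119472 reads in FDM 2 and none in FDM 3, and it made up most of the summed level in FDM 2 and in NC 1 to 3. The other markers were not at 0 in FDM 3, where Slc1a3 was at 90.2 CPM, above its 86.2 CPM in FDM 2, and Aqp4 and Aldh1l1 had 280 and 243 reads. Of 4 mast cell markers in the table, Cpa3 had 13 reads in FDM 3, 5 in NC 3 and none elsewhere, and Fcer1a had 12 reads in FDM 2 alone. Hdc had 36 reads in FDM 3, 44 in NC 1 and 11 in NC 3, and Kit, which melanocytes also express, had 125, 126 and 168 reads in FDM and 0, 195 and 330 in NC. Adora1 with the summed muscle markers and Adora3 with the summed astrocyte markers were the 2 combinations with no pair of libraries out of order. They were among 84 combinations of a receptor and a marker list, and they were picked after the values were seen. The part of muscle or glial tissue in the receptor values was not tested.

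**Figure D5:**
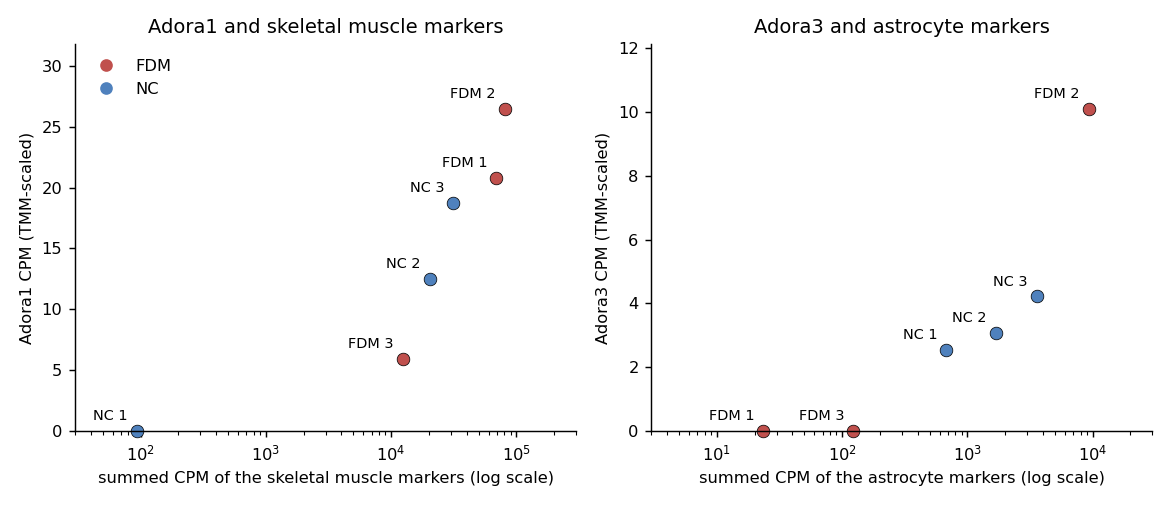
The left panel plots Adora1 CPM against the summed CPM of 10 skeletal muscle markers and the right panel Adora3 CPM against the summed CPM of 4 astrocyte markers, with a log scale on the horizontal axes and each point a library (FDM red, NC blue). From left to right Adora1 rises at each step from 0 CPM in NC 1 to 26.5 CPM in FDM 2, and Adora3 from 0 CPM in FDM 1 and FDM 3 to 10.1 CPM in FDM 2.

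The genes whose log2 CPM across the 6 libraries was most like that of each tested receptor were listed by Pearson r among 13006 genes with a symbol and an average log2 CPM of at least 1. With 6 libraries, of which 2 stood apart, many genes reach a high r, and the values are a description. For Adora1 they were Ppp1r27 (r = 0.999), Yipf7 (0.998) and Ndufs4 (0.998), with 689 genes above 0.9. For Adora3 they were Klk6 (0.998), Armc3 (0.996) and Opalin (0.992), of which Klk6 and Opalin are known from oligodendrocytes. For Chrm3 they were Esrrg (0.999), Tmem67 (0.999) and Znf608 (0.999), and for Chrm4 Sec16a (0.996), Stmn2 (0.964), a gene of growing neurites, and Fam240a (0.954). For Adora2a they included Ajuba (0.993) and Glis2 (0.987), and for Adora2b they were Zcchc9 (0.993), Ino80e (0.983) and Slit2 (0.969), an axon guidance ligand. Chrm4 had 17 genes above 0.9 and Adora2b 46. Among the receptors themselves the widest contrast was between Adora1 and Adora2b, with r = -0.96 over the 6 libraries. NC 1 stood apart in both, with no Adora1 read and 9.001 CPM of Adora2b. Elsewhere Adora2b ran only from 3.94 to 4.96 CPM.

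Genes that make, move or break down the ligands, or carry the receptors' signal, were taken from 7 lists. Of their 94 entries the table held 91, and 81 could be tested. Of these, 0 were called higher and 0 lower by edgeR's test over all genes, and 0 had an unadjusted p below 0.05, where 0.954% of all genes did. Acetylcholine genes had a median log2 fold change of -0.02 over 7 tested, beside 0.02 for all genes. Ache, which encodes acetylcholinesterase, was at 241.2, 161.3 and 61.5 CPM in FDM 1 to 3 and at 92.6, 188.9 and 123.1 CPM in NC 1 to 3. Prima1, the membrane anchor of acetylcholinesterase, was the one gene of its list whose groups did not overlap. All FDM libraries lay below all NC libraries for 2.81% of all genes tested, and groups did not overlap in either direction for 5.55%. Its FDM libraries held 24.5, 21.5 and 17.3 CPM and its NC libraries 61.5, 28.1 and 36.1 CPM. Its log2 fold change was -0.99 ± 0.50 (SE), with an unadjusted edgeR p of 0.0768. Chat, the enzyme that makes acetylcholine, had 78, 2 and 21 reads in FDM and 57, 172 and 160 in NC. In CPM it was highest in NC 2 and NC 3 (10.4 and 8.34 CPM), the libraries with most Chrm4, but FDM 1 was close to NC 3 at 7.69 CPM. The choline transporter gene Slc5a7 had 50 and 205 reads in NC 2 and NC 3, 15 in FDM 2 and none in the other 3 libraries. Slc18a3, the vesicular acetylcholine transporter, had both its lowest and its highest CPM in FDM. It had 8 reads in FDM 2 (0.577 CPM) and 375 in FDM 1 (37.0 CPM), and its log2 fold change was -0.02 ± 1.37. Bche, encoding butyrylcholinesterase, had 0.95 ± 1.61 (SE), with no read in FDM 1.

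Nicotinic receptor subunits, the ion channel receptors for acetylcholine, had a median log2 fold change of -0.18 over 13 tested, 5 above and 8 below 0. Chrna5, a neuronal accessory subunit, ran from 2.96 to 6.11 CPM in the FDM libraries and from 7.04 to 17.8 CPM in the NC libraries. Its groups did not overlap, as for 5.55% of all genes tested, and its log2 fold change was -1.54 ± 1.0 (SE). Chrne, the adult muscle subunit, had 0.65 ± 0.61 and the neuronal subunit gene Chrnb2 -1.38 ± 1.84. Among the alpha-2 adrenergic and dopamine receptor genes, further receptors discussed for antimyopia drugs, 6 were tested, with a median of -0.41, 3 above and 3 below 0. Adra2a, an alpha-2 receptor that atropine can also bind, was at 29.8, 11.3 and 0.502 CPM in FDM 1 to 3 and at 6.07, 3.27 and 9.48 CPM in NC. The highest and the lowest value were again both in FDM. Drd2 and Drd4, dopamine receptor genes of the retina, had log2 fold changes of -1.15 ± 0.98 and -2.71 ± 1.95. Drd4 had 967 reads in NC 2, the library with the most photoreceptor reads, and none in FDM 1, the one with the fewest. The part of retinal tissue in these values was not tested.

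Downstream of the receptors, Gq signalling genes had a median of 0.31 over 11 tested, with 8 above 0. Plcb2, Plcb4 and Itpr2, which encode phospholipases C and a calcium channel of the ER, had 1.72 ± 0.89, 0.52 ± 0.46 and 0.85 ± 0.60 (SE), of which Plcb2 ran from 5.33 to 34.9 CPM across the FDM libraries and from 4.29 to 8.44 CPM across the NC libraries. The 15 genes of Gi, Gs and adenylyl cyclases tested had a median of 0.02. Gnaz, a Gi-family subunit of neurons and platelets, had -1.63 ± 0.75, Adcy1 -1.24 ± 0.84 and Adcy7 1.98 ± 1.66, the last with 92.1 CPM in FDM 3 and no read in FDM 1. The 15 cyclic AMP phosphodiesterase genes tested, whose products are inhibited by many methylxanthines, had a median of -0.09. Pde4d had 0.83 ± 0.49, Pde2a 0.79 ± 0.52 and Pde4c -3.17 ± 2.14, with 0, 6 and 7 reads of Pde4c in FDM and 58, 23 and 21 in NC.

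Genes of adenosine supply and removal had a median of -0.03 over 14 tested, 6 above and 8 below 0. Slc29a1, the equilibrative nucleoside transporter that clears adenosine, ranged from 455.7 to 767.8 CPM across the FDM libraries and from 324.0 to 779.4 CPM across the NC libraries, with 5358 to 8957 reads in each library. Its log2 fold change was 0.13 ± 0.54 (SE). Entpd1 and Nt5e, the ectoenzymes that turn ATP into adenosine, had 0.22 ± 0.63 and -0.06 ± 0.97, and Nt5e ran from 5.91 CPM in FDM 1 to 148.3 CPM in FDM 3. Alpl, a phosphatase that also yields adenosine, had -1.55 ± 1.23. The removing enzymes Ada and Adk had -0.03 ± 0.55 and 0.15 ± 1.43, with no Adk read in FDM 1, and Ahcy, which releases adenosine from S-adenosylhomocysteine, had -0.55 ± 0.56. Slc29a4, a low-affinity transporter that also carries monoamines, had 0, 0 and 19 reads in FDM and 26, 102 and 133 in NC, with no overlap and a log2 fold change of -3.67 ± 2.27. Genes whose FDM libraries all lay below the NC libraries numbered 4 in the 7 lists (Prima1, Chrna5, Pde4c and Slc29a4), of 81 tested, and 0 lay above them, where 2.81% and 2.73% of all genes did.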

How the data were processed

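Total RNA of 6 scleral samples was sequenced. Trizol extraction and a NEBNext Ultra RNA library kit are named, per the labels' protocols. The authors deposited raw counts of reads for each gene in 1 table, 1 column per library. The submitters' processing notes name Trimmomatic, STAR and HTSeq. Their versions, the strandedness of counting, the genome and its annotation are not given here, so no coordinates are printed and reads of overlapping genes cannot be told apart. The table holds no line of unassigned reads.

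Groups and numbers follow the sample titles. The fit used edgeR 4.0.16 under R 4.3.3 (filterByExpr, TMM, robust quasi-likelihood fit, group as the only term, Benjamini-Hochberg adjustment over 16348 genes, called below 0.05). The procedure was tested on simulated data, with less spread between libraries than most receptors had and without the extra zeros of FDM 1 and NC 1. That test does not cover receptors of such spread. CPM values use TMM library sizes unless total counts are named, and SE is the absolute log2 fold change over the root of F. The exact permutation test used log2(CPM + 0.5). Log2 CPM for likeness used a prior count of 2. Detection means at least 1 read. The receptors and lists were chosen with earlier results of these data known. Named list genes are the 3 of smallest p and a mean log2 CPM not under 0, plus 11 genes always. Alternatives used DESeq2 1.42.0, limma 3.58.1, other scalings, filters and thresholds, a replicate block and libraries left out. Figures were drawn with matplotlib 3.10.9. Nothing shows that libraries of a group came from separate animals beyond their being right eyes, so p-values measure the spread between these samples. A gene that the likeness rule takes for Adora2a is not reported here.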

Additional observations from a re-analysis of the deposited data

How the results depend on the processing

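In limma-voom and every other edgeR fit 0 receptors, 0 of the listed pathway genes and 0 genes in all were called. DESeq2 called 11 genes, but gave an adjusted p to 5874 of 16348 genes, among them 0 of 6 receptors and 31 of 81 pathway genes, so it made no call on the receptors. An unadjusted p below 0.05 gave 156 genes. Chrm4 and Adora2b kept a negative log2 fold change in every fit. The fits reuse the same libraries, so a kept sign is no separate support, and Adora2b was -0.14 ± 1.40 (SE) without NC 1. For the other 4 receptors the sign was not fixed. With libraries left out in turn the log2 fold change ran from -1.92 to 0.88 for Chrm3, -0.69 to 0.77 for Adora2a, -8.57 to 0.61 for Adora3 and 0.18 to 1.35 for Adora1. Adora1 was -0.044 without both libraries numbered 1. Adora2a was -0.050 with total-count scaling, under which the median over all genes went from 0.02 to -0.23. Adora3 was -0.059 in DESeq2, -3.74 in limma-voom, -0.058 with RLE, -0.050 with upper-quartile and -0.22 with total-count scaling, and -0.048 without a filter. The cause was not tested. With the replicate number as a block Adora3 was -5.27 and Chrm4 -5.03, and no call changed. Deviations of same-numbered libraries from their group means had r of 0.0951, 0.0335 and -0.152 across genes. Those of unlike number had r from -0.222 to 0.261. Sample titles give only a number, but FDM 1 and NC 1 also shared the fewest genes detected (12783 and 14416). Whether same-numbered libraries were paired or shared a batch cannot be told from these values. Receptors detected in every library rose from 2 to 4 without both libraries numbered 1. With detection set at 10 reads or at 1 CPM, 6 receptors were detected in FDM, and 9 and 8 in NC. By counting error alone a 0 allows up to 3 counts. Zeros in FDM 1 and NC 1 also fell on genes of far higher count. Of genes averaging 50 to 100 counts in the other 5 libraries, 56.5% and 33.1% were at 0 there. A 0 in these libraries therefore sets no such limit.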
